A study of Homo sapiens with 2 samples.

Results

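The 10 genes described here are targets of the transcription factor p53 that act in DNA repair or cell death: DDB2, XPC, POLH, RRM2B, FAS, TNFRSF10B, AEN, FDXR, TP53I3 and PHLDA3. They are 10 of the 19974 protein-coding genes annotated on chromosomes 1 to 22 and X. Around them, every listed binding peak of JUNB was taken whose summit lay within 50 kb of the gene's span. There were 38 such peaks of 32550 in untreated cells and 24 of 25739 in cells treated with etoposide. The cells were IMR-90, a line of human lung fibroblasts, and JUNB was profiled by CUT&RUN, in which an antibody brings a nuclease to its target on chromatin and the released fragments are sequenced. The untreated group had no treatment and the other group received etoposide (ETO), a drug that traps topoisomerase II on cut DNA and so leaves double-strand breaks. Both groups are the same line, and neither a dose nor a duration is given in the sources used here. Each condition had 1 library, so no difference below has a replicate check and none is tested.

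JUNB is a subunit of AP-1, a dimer of JUN and FOS family proteins that is active in fibroblasts under growth signals and stress. AP-1 letters were searched here with the loose palindrome TGANTCA, in which N is any base. p53 is stabilised after DNA damage and binds its own sites at many genes. Among these targets DDB2 and XPC recognise ultraviolet lesions at the start of nucleotide excision repair, POLH copies past them, and RRM2B supplies deoxynucleotides. FAS and TNFRSF10B encode death receptors at the cell surface, and the others act in apoptosis or in mitochondrial and oxidative metabolism. p53 itself was not measured, so the data show where JUNB was listed near its target genes and not whether those genes were active.

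All 10 genes had an untreated peak within 50 kb, where 72.0% of protein-coding genes did. In etoposide 8 of the 10 did, against 62.6% of genes, and the same 8 had peaks in both libraries, against 58.6%. POLH and FDXR had a peak in the untreated list alone, a pattern seen at 13.5% of genes, and none of the 10 had one in the etoposide list alone, where 4.05% of genes did. The members' spans ran from 4.91 kb (PHLDA3) to 53.01 kb (FAS), and among the 10910 protein-coding genes with spans in that range 70.9% and 59.1% had a peak in the untreated and etoposide lists. The 10 genes had a median of 3 untreated peaks (1 to 8) and 2 etoposide peaks (0 to 5), beside medians of 2 and 1 over all genes and of 1 and 1 over the genes with spans in that range.

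**Figure D1:**
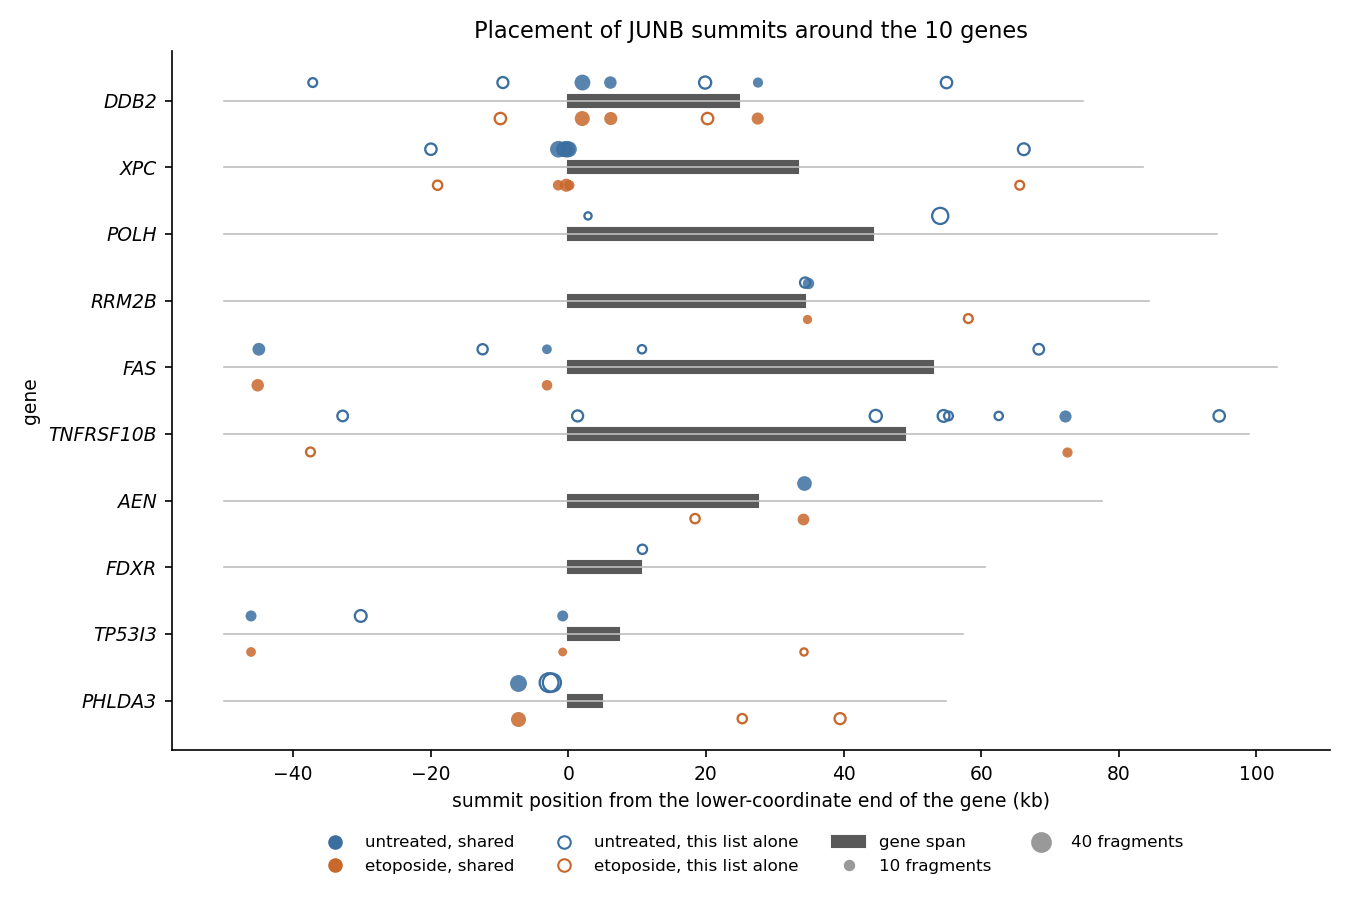
JUNB summits around the 10 genes, by distance in kb from the lower-coordinate end of each gene (grey bar, gene span; line, window of 50 kb on either side). Untreated summits are above the line and etoposide summits below it, filled where the peak overlaps one of the other list, with the circle's area in proportion to the fragments at the summit. DDB2 has a row of summits at like places in both libraries, whereas POLH and FDXR have none below the line.

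A peak is called shared here when it overlaps any peak of the other list by 1 bp or more. Of the 38 untreated peaks 14 were shared, 36.8% (95% Wilson interval 23.4% to 52.7%), where the share over all untreated peaks was 51.0%. Of the 24 etoposide peaks 14 were shared, 58.3% (38.8% to 75.5%), where 64.8% of all etoposide peaks were. Both intervals, which cover counting error only, hold the share of the whole list. The ratio of etoposide to untreated peak numbers near the 10 genes was 0.632 (exact interval 0.362 to 1.08), and the interval holds the ratio over all peaks, 0.791. The 24 untreated peaks without a counterpart lay in 9 of the windows, all but that of AEN.

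More untreated than etoposide peaks were listed at 6 of the 10 genes, a difference seen at 45.6% of all genes, and more etoposide peaks at 1, AEN, where 12.9% of genes had more. Over the full lists in this window, the 2 death receptor genes held most of the difference. FAS and TNFRSF10B together had 13 untreated and 4 etoposide peaks, with 3 shared places. The 4 repair genes had 17 and 12 peaks with 7 shared places, and the other 4 genes had 8 and 8 with 4 shared places. How many members lie in each direction depends on the window: within 100 kb AEN was 1 of 3 genes with more etoposide peaks. The directions also depend on peak strength. Among the 10000 strongest peaks of each list FAS had 0 untreated and 2 etoposide peaks, and TNFRSF10B had 2 and 0. The death receptor genes did not hold the difference there.

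**Figure D2:**
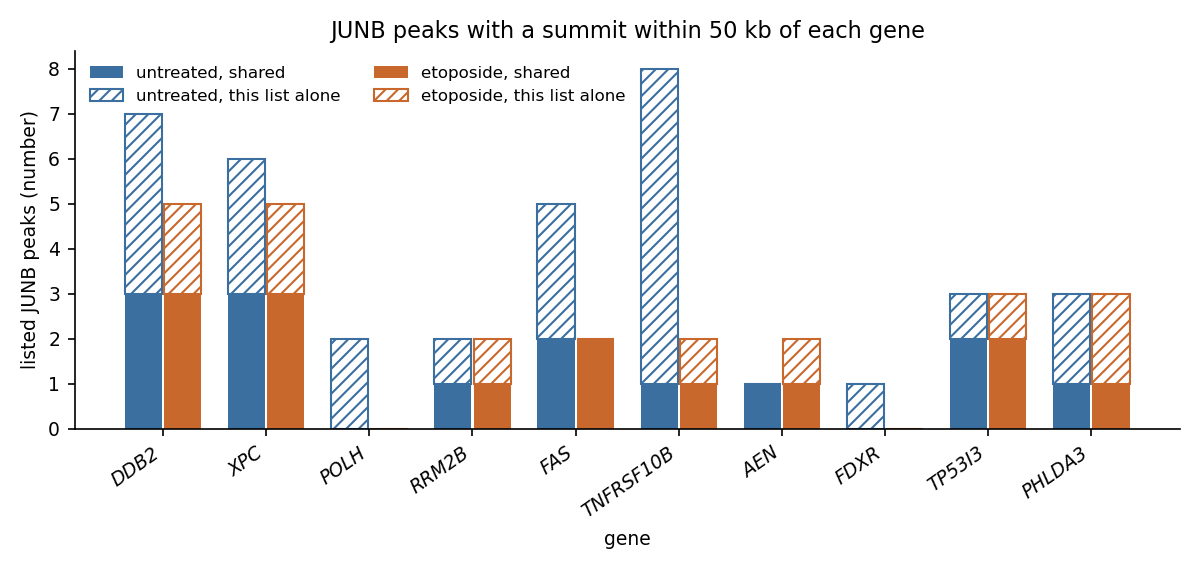
Number of listed JUNB peaks with a summit within 50 kb of each gene, for the untreated library (blue) and the etoposide library (orange); solid parts are shared peaks and hatched parts are peaks of that list alone. TNFRSF10B has 8 untreated and 2 etoposide peaks, and TP53I3 and PHLDA3 have 3 in each.

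Peak height is given below as fragments at the summit, a whole number recovered from the authors' fold and p-value of each peak. The median height was 15 over all untreated and 13 over all etoposide peaks. Near the 10 genes it was 15 (6 to 41) and 12.5 (6 to 26). The etoposide library had an estimated 0.836 times the depth of the untreated one. That estimate reads the lowest local background of each list as its genome-wide coverage and the smallest peak width as its fragment length. Where a peak is in 1 list only, the height expected at the other library's depth is set beside the height that would have been needed there to reach its lowest listed p-value. By that measure 23 of the 24 untreated and all 10 etoposide peaks without a counterpart were expected at or above the height needed. The exception was the FAS peak with 8 fragments. The bar is low: even the POLH peak with 6 fragments passed it, with 5.01 expected and 5 needed. The same count over all peaks of a single list is not given here, so it is not read as a trait of these genes. Listed heights run high for weak peaks, since a peak is listed partly because its count came out high.

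**Figure D3:**
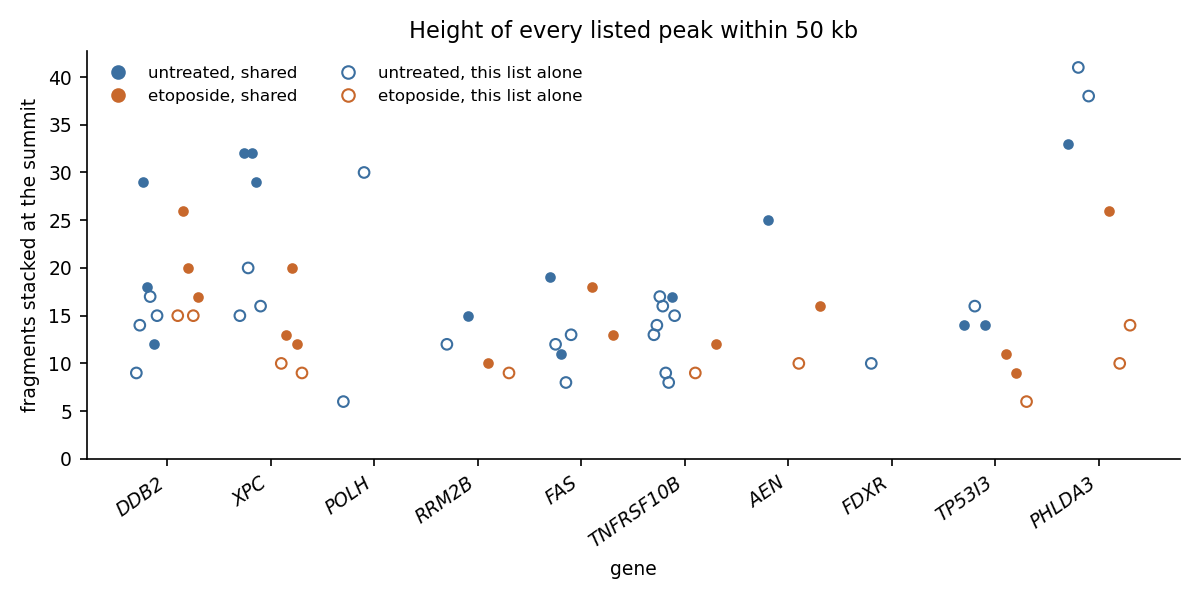
Fragments at the summit of every listed peak within 50 kb, by gene and library, filled where shared. The highest circles are the untreated peaks of PHLDA3, at 41, 38 and 33 fragments, and the highest etoposide circles are 26 fragments at DDB2 and at PHLDA3.

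DDB2, the damage-binding subunit that finds ultraviolet lesions, had 5 etoposide peaks, as many as XPC and more than the other 8 genes, and 7 untreated ones. The gene spans chr11:47214454-47239217 on GRCh38, on the forward strand. Its strongest place was shared and lay inside the gene, at chr11:47216365-47216740 in the untreated list and chr11:47216381-47216607 in the etoposide list. The untreated summit stood 1.54 kb and the etoposide summit 1.51 kb after the nearer of the 2 annotated starts, with 29 and 26 fragments. These peaks stood among the strongest 12.3% and 6.60% of their lists, and the etoposide one was the best-ranked etoposide peak near any of the 10 genes.

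A second shared place inside DDB2, at chr11:47220519-47220720 (untreated), had 18 and 20 fragments. Another, at chr11:47241940-47242147, lay 2.81 kb beyond the gene's end inside its neighbour ACP2, a lysosomal acid phosphatase gene, with 12 and 17 fragments. The etoposide peak was thus the higher one at 2 of the 3 places before any correction for depth. The ratios of etoposide to untreated fragments were 0.897 (exact interval 0.507 to 1.58), 1.11 (0.558 to 2.23) and 1.42 (0.638 to 3.25). Over all 16610 shared untreated peaks the median ratio was 0.778 with quartiles of 0.621 and 1, so the DDB2 ratios stood at percentiles 65.4, 83.9 and 94.9. All 3 intervals hold the median ratio, and no difference from it was detectable at these heights.

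The other DDB2 peaks came in near-pairs. Upstream, 9.51 kb before the gene, an untreated peak with 14 fragments began 80 bp past the end of an etoposide peak with 15 fragments. Inside the gene an untreated peak (17 fragments) stood 116 bp from an etoposide peak (15 fragments). These 4 peaks count as peaks of a single list although each has a neighbour that close. Among all 10 genes, 6 of the 24 untreated peaks without a counterpart had an etoposide peak within 500 bp, 25%, beside 14.3% of all such untreated peaks. For etoposide it was 4 of 10, 40%, beside 15.6%. All of them were at DDB2, XPC and RRM2B. The remaining DDB2 peaks were untreated and near other genes, PACSIN3 and MADD, with 9 and 15 fragments.

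XPC, the other lesion sensor, showed a tight group of peaks at its downstream end and none at its start. The gene spans chr3:14145147-14178601 on the reverse strand. In the untreated list 4 peaks stood within 1.85 kb of each other, in and beside the last part of XPC and the end of TMEM43. Their summits carried 32, 20, 32 and 29 fragments, on local backgrounds of 4.16 to 4.18 fragments where the list's median was 1.27. In the etoposide list 3 peaks stood at the same places, with 13, 20 and 12 fragments on backgrounds of 2.04 to 2.08, where the median was 0.907. Peak and background were thus both lower in the etoposide library here.

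The shared place at chr3:14143535-14144257 (untreated) had a ratio of 0.406 (0.196 to 0.796), percentile 2.62 of all shared peaks. The place inside XPC, at chr3:14145152-14145383, had 0.414 (0.192 to 0.836), percentile 3.05. Between them chr3:14144772-14145024 had 0.625 (0.339 to 1.13), percentile 25.2. The first 2 intervals lie below 1 but hold the median ratio of all shared peaks, 0.778. The 3 places lie close together on like local backgrounds, so they are not read as separate measurements. Elsewhere in the window each list had a peak inside TMEM43 and a peak over 32 kb before the XPC start, with 15 and 16 fragments in untreated and 10 and 9 in etoposide. Neither pair overlapped, and the peaks were 458 bp and 111 bp apart.

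**Figure D4:**
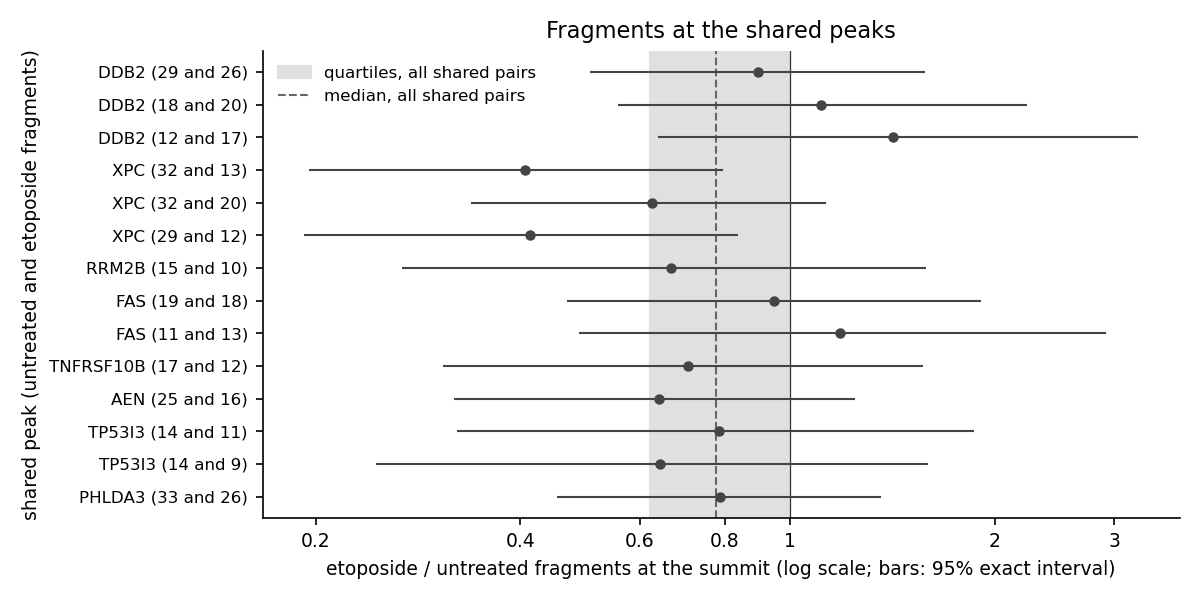
Ratio of etoposide to untreated fragments at each of the 14 shared places (log scale), with exact 95% intervals for counting error; the dashed line and grey band are the median and quartiles over all shared peaks. The 3 places at DDB2 and the 2 at FAS lie above the median of 0.778 and the 3 at XPC below it, and every interval crosses it.

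Over the 14 shared places of the 10 genes the median ratio was 0.746 (0.406 to 1.42), next to 0.778 over all shared peaks. The etoposide peak was the lower one at 11 of the 14, and at 73.4% of all shared peaks. None of the 14 intervals excluded the median of all shared peaks.

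POLH, the polymerase that copies past ultraviolet lesions, had 2 untreated peaks and no etoposide peak. The gene spans chr6:43576185-43620523 on the forward strand. The peak inside it, at chr6:43578991-43579192, stood 2.86 kb after the start with 6 fragments (Poisson interval 2.20 to 13.1), and was among the weakest of the list at rank 32216. The other, at chr6:43629478-43630365, was the best-ranked untreated peak near any of the 10 genes, with 30 fragments (20.2 to 42.8) and rank 2989. It lay 9.71 kb beyond POLH, inside both GTPBP2 and MAD2L1BP, which start side by side. The nearest etoposide peak was 56.9 kb away, where 25.1 fragments were expected at its depth and 9 would have been needed.

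RRM2B, the p53-induced small subunit of ribonucleotide reductase, had its closest peaks at its higher-coordinate end. The gene spans chr8:102204501-102238961. In the untreated list chr8:102238815-102239020, with 12 fragments, had its summit 0.044 kb inside the higher-coordinate end, and chr8:102239140-102239388, with 15 fragments, had it 0.325 kb outside. The etoposide list had 1 peak there, chr8:102239047-102239248, with 10 fragments and a summit between the other 2. It overlapped the outer untreated peak and was 26 bp from the inner one.

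FAS encodes the receptor for FAS ligand and shares its region with ACTA2, the smooth-muscle actin gene that fibroblasts also use. The annotated span, chr10:88964050-89017059, overlaps ACTA2. The 2 shared places were both outside FAS. One lay in ACTA2 at chr10:88960820-88961021 (untreated), 3.10 kb from the span, with 11 and 13 fragments. The other lay in STAMBPL1 at chr10:88918772-88919181, 45.0 kb away, with 19 and 18 fragments. These heights differed little between the libraries before any correction for depth, with ratios of 1.18 (0.489 to 2.91) and 0.947 (0.469 to 1.91). Like those at DDB2, the ratios were above the median of all shared peaks, 0.778, at percentiles 87.7 and 71.9. Both intervals hold that median.

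The untreated list alone had a further 3 peaks near FAS. The peak at chr10:88974602-88974852, with 8 fragments, lay where FAS and ACTA2 overlap, 16.0 kb before the nearest annotated FAS start, and ranked 32377. Another in ACTA2, at chr10:88951460-88951779, had 12 fragments, and one 15.4 kb past the other end had 13. No peak of either list touched the 3 promoter windows of FAS. The first of them holds a match to TGANTCA, read TGAATCA with A at N, and it is shown as the member promoter with a match and no listed peak. The 250 bases before that start, on the forward strand at chr10:88990548-88990797 (GRCh38.p14, RefSeq), read as follows, with the match to TGANTCA in capitals.
FAS: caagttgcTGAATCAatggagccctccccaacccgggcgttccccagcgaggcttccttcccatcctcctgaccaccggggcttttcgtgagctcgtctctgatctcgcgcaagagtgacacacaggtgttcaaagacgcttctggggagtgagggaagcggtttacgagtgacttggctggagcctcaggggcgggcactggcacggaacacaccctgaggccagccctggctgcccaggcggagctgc

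TNFRSF10B, the gene of the TRAIL receptor DR5, had the most untreated peaks, 8, and 7 of them had no etoposide counterpart. The gene spans chr8:23020133-23069031. Inside it were chr8:23021316-23021544 with 14 fragments and chr8:23064675-23064973 with 17, and no etoposide peak. Within the neighbouring transcript TNFRSF10B-AS1 were 3 more untreated peaks, with 16, 9 and 8 fragments, the nearest 5.64 kb from the gene. The nearest etoposide peaks to these 5 were 9.46 to 38.5 kb away.

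All 5 of those peaks were of middling or low height, at ranks from 11067 to 30942. The expected etoposide heights were 11.7 and 14.2 fragments for the 2 inside the gene, where 6 and 7 would have been needed. The single shared place, at chr8:23092204-23092730, lay 23.3 kb away in the transcript LOC254896, with 17 and 12 fragments and a ratio of 0.706 (0.308 to 1.57). An untreated peak inside TNFRSF10C, the decoy receptor gene next to it, had 15 fragments and the better rank, 6402. Near RHOBTB2 on the other side each list had a peak of its own, with 13 and 9 fragments, 4.12 kb apart. Just outside the window an etoposide peak with 10 fragments lay 53.2 kb from TNFRSF10B, the only peak of either list between 50 and 60 kb from any of the 10 genes. Just inside the edge, 3 untreated and 2 etoposide peaks lay between 45.0 and 46.1 kb from FAS, TNFRSF10B and TP53I3, with 11 to 19 fragments.

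AEN, an apoptosis-enhancing nuclease, was the 1 gene with more etoposide than untreated peaks, 2 against 1. The gene spans chr15:88604683-88632281, and its promoter window is on the forward strand. The etoposide list alone had chr15:88623011-88623231, inside the gene, with 10 fragments (4.80 to 18.4) and rank 23027 of 25739. Its summit stood 1.77 kb after the start to which the promoter window belongs, chr15:88621340. That start lies inside the span and not at its lower-coordinate end. At a -log10 q of at least 5 this peak dropped out. The shared place, at chr15:88638551-88639011 (untreated) and chr15:88638767-88638984 (etoposide), had 25 and 16 fragments, a ratio of 0.640 (0.319 to 1.25). It lay 6.63 kb beyond AEN, on the promoter of ISG20, an interferon-induced nuclease gene, with its summits 108 and 175 bases before the ISG20 start.

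The ISG20 promoter is shown because it was the only promoter window under a peak of these 10 genes that holds the AP-1 letters. The untreated peak covered the match, which begins at base 229 of the window. The etoposide peak covered 218 of the 250 bases and ended before the match, at chr15:88638984. These are the 250 bases before the ISG20 start, forward strand, chr15:88638766-88639015 (GRCh38.p14, RefSeq), with the match in capitals, 22 bases before the start.
ISG20: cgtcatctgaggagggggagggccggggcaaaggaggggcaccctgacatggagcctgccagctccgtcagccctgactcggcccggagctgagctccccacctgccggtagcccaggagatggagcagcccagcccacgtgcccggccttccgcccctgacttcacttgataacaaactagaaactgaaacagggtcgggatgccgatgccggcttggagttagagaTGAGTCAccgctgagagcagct

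TGANTCA (a palindrome, so both strands are read at once) occurred in 6.54% of the 34961 promoter windows of 250 bases. The share was 11.3% of the 1094 windows with an untreated summit and 26.5% of the 370 with an etoposide summit. TGACGTCA, the related cyclic-AMP response element, occurred in 1.65% of all windows, in 4.39% of those with an untreated summit and in 2.43% of those with an etoposide summit. RefSeq windows matched 7 of the 10 genes, 11 windows in all; RRM2B, TNFRSF10B and PHLDA3 were not matched. TGANTCA was in 1 of the 11, that of FAS, and TGACGTCA in 0. A match is a description of letters and not of binding.

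FDXR, the mitochondrial ferredoxin reductase, had a single listed peak, and of the 7 genes with promoter windows it was the only one with a peak over them. The gene spans chr17:74862497-74872994 on the reverse strand. The untreated peak chr17:74873185-74873388 had its summit 0.272 kb before the start, with 10 fragments (4.80 to 18.4) and rank 22045. The nearest etoposide peak was 223 kb away, where 8.36 fragments were expected and 5 needed. The promoter is printed to show what the peak covers: 60 of its 250 bases, in capitals, at chr17:74872995-74873244 (reverse strand, GRCh38.p14, RefSeq). Neither AP-1 motif is in the window.
FDXR: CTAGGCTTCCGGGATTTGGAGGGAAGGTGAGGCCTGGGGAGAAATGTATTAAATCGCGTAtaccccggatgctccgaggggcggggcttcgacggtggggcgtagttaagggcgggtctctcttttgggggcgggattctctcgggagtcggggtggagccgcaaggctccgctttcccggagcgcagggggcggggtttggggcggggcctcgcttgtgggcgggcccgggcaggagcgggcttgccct

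TP53I3, a quinone oxidoreductase tied to oxidative stress after p53 activation, had 3 peaks in each list. The gene spans chr2:24077433-24084834 on the reverse strand. The closest place was shared, at chr2:24076498-24076811 (untreated) and chr2:24076579-24076767 (etoposide), with 14 and 9 fragments and a ratio of 0.643 (0.245 to 1.59). It lay 0.810 kb past the downstream end of TP53I3, on the promoter of FAM228B, with summits 210 and 217 bases before that gene's start. The untreated peak also reached the promoter of SF3B6, a splicing factor gene. The other shared place, inside WDCP 46.1 kb away, had 14 and 11 fragments. Each list also had a peak alone: an untreated one of 16 fragments where WDCP and FKBP1B overlap, and an etoposide one of 6 fragments inside FAM228B.

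The FAM228B promoter is shown because both summits fall in it, forward strand, chr2:24076583-24076832 (GRCh38.p14, RefSeq), with the 229 bases under the untreated peak in capitals. It is a repeat in which the letters TGAGTA return 4 times, and TGANTCA is absent from this window. On either strand these 6 letters were in 6.06% of all promoter windows, and 1 of the 34961 held them as many as 4 times. They were chosen after the sequence had been read.
FAM228B: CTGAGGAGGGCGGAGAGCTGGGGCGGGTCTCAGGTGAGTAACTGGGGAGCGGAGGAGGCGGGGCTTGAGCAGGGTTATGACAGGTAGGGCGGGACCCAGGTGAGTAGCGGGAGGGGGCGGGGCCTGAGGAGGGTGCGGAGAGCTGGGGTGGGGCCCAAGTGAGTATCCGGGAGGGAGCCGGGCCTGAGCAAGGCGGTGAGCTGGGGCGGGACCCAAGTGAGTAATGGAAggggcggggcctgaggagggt

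PHLDA3, which restrains AKT signalling by competing for membrane lipids, had the highest peaks of the 10 genes. The gene spans chr1:201464278-201469188. Close to its lower-coordinate end the untreated list had chr1:201461358-201461624 with 41 fragments (29.4 to 55.6) and chr1:201461755-201462055 with 38 (26.9 to 52.2), 2.79 and 2.39 kb from the gene. They ranked 3409 and 3600 in the untreated list, and neither had an etoposide peak nearer than 4.32 kb. At the etoposide depth 34.3 and 31.8 fragments were expected, and 15 and 13 would have been needed. Only 4.56 kb from the first of these summits, chr1:201456644-201457057 was shared, with 33 and 26 fragments and a ratio of 0.788 (0.453 to 1.36), next to the median of all shared peaks. In etoposide a further 2 peaks with 10 and 14 fragments lay inside CSRP1, 20.4 and 34.6 kb to the other side.

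Untreated peaks of that height were seldom without a counterpart. Of 3371 untreated peaks with at least 30 fragments, 223 had none, 6.62%. Near the 10 genes there were 6 such peaks, and the 3 without a counterpart were the pair at PHLDA3 and the peak in GTPBP2 and MAD2L1BP near POLH. That count depends on the cut, since the peak near POLH stood at it, with 30 fragments. Shared untreated peaks at DDB2 and XPC, with 29 each, fell just below. The PHLDA3 pair are close neighbours, 2.79 and 2.39 kb from the gene, and may not be separate places. The PHLDA3 pair stood on local backgrounds of 5.23 and 4.50 fragments, against a median of 1.27 in the list, and the shared peak beside it on 5.53 in untreated and 3.08 in etoposide. The part of the local background in these listings was not tested.

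Many of the peaks lie nearer to another gene than to the p53 target. Of the 38 untreated peaks 21 had the member as their nearest protein-coding gene, or as 1 of 2 that overlap there, and of the 24 etoposide peaks 9 did. With those alone DDB2 had 4 in each list, TNFRSF10B 5 and 0, PHLDA3 3 and 1, XPC 3 and 2, and FAS 2 and 0. AEN had 0 and 1, and TP53I3 had none in either list. Inside the genes themselves there were 9 untreated and 5 etoposide summits, and 7 and 4 stood within 1 kb of a gene end, at XPC, RRM2B, TP53I3 and, in untreated alone, FDXR.

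Within 10 kb, an untreated peak was listed at all 10 genes and an etoposide peak at 7, where 49.6% and 38.9% of protein-coding genes did. The 7 had peaks in both lists, against 34.3% of genes, and 3 (POLH, TNFRSF10B and FDXR) had an untreated peak alone, against 15.3%. Other genes of these pathways are given for comparison in the same window. Of 30 other p53 targets 20 were near an untreated peak, 17 near an etoposide peak and 15 near both; BTG2, PLK2, CCNG1, CDKN1A and TRIAP1 had an untreated peak alone, and SESN2 and ZMAT3 an etoposide peak alone, where 4.61% of genes did. These statuses hold for 10 kb: within 50 kb 24 of the 30 were near both, among them PLK2, CDKN1A, SESN2 and ZMAT3, and CDKN1A and ZMAT3 had more etoposide than untreated peaks. BTG2, CCNG1 and TRIAP1 had an untreated peak alone in either window. Of 10 further genes of nucleotide excision repair 7 were near an untreated peak, 7 near an etoposide peak and 6 near both. CETN2 had an untreated peak alone and DDB1, the partner of DDB2, an etoposide peak alone. Within 50 kb 8 of the 10 had peaks in both, and DDB1 was among them with more untreated than etoposide peaks, while CETN2 had an untreated peak alone there too.

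Of 8 genes of translesion synthesis and nucleotide supply, 8 were near an untreated and 7 near an etoposide peak, and PCNA, the sliding clamp that recruits POLH, was in untreated alone. Of 10 genes of the death receptor pathway 8 were near an untreated peak, 7 near an etoposide peak and 6 near both. TNFSF10, which encodes the ligand TRAIL, had an untreated peak alone, and TNFRSF10D, a decoy receptor, had an etoposide peak alone. Within 50 kb every gene of these 2 lists had a peak in both libraries, with more untreated peaks at PCNA and TNFSF10 and more etoposide peaks at TNFRSF10D. TNFRSF10A and TNFRSF10C are in both that list and the list of p53 targets, and neighbouring TRAIL receptor genes can be counted for the same peak.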

How the data were processed

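JUNB CUT&RUN was deposited as 1 narrowPeak list per library, 1 untreated and 1 etoposide. The submitters' processing notes name Bowtie2, MACS2, mm10 and hg38. Versions, settings and any control are not given in the sources used here, and contig names are those of GRCh38. The authors' fold is the ratio of summit signal to local background. The deposited significance values are -log10 p and -log10 q, and the deposited score is 10 times the latter. These values were used only within their own list. Another 941 untreated and 851 etoposide peaks lay on Y, the mitochondrial genome or contigs and were left out.

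Spans came from RefSeq GRCh38.p14, and summits are peak start plus the deposited offset. Fragments k and background b solve fold = (k + 1)/(b + 1) and the Poisson tail above k, which gave whole k for 100% of peaks to a tolerance of 0.001 in -log10 p. Simulated data were used to test this step. Ratio intervals are exact binomial, and all intervals cover counting error only, without molecular identifiers. All 10 genes are described, with their strongest, shared, inner and boundary peaks in full. The members and lists were chosen with earlier results of these data known. Alternatives were the window, the threshold, the overlap and the nearest gene. No genome sequence was used here, so letters were searched in promoters only. Python 3.11.15, pandas 2.3.3 and scipy 1.17.1 were used. Some results near the genes are not reported here.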

Additional observations from a re-analysis of the deposited data

How the results depend on the processing

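The 10 genes had more untreated than etoposide peaks under all 6 alternatives run for the ratio of the 2 numbers, which stayed between 0.429 and 0.769. Over all peaks of the full lists the ratio was 0.791, so fewer etoposide peaks are a property of the lists as well. That value is no background for the 0.769 among the 10000 strongest, where both lists have equal numbers by construction. The ratio of the whole lists at a -log10 q of at least 5 is not given here. Peak numbers, untreated first, were 25 and 14 within 10 kb, 13 and 10 among the 10000 strongest peaks of each list, and 21 and 9 where the member is the nearest gene. Within 100 kb there were 40 etoposide peaks. Genes with an etoposide peak fell to 5 among the 10000 strongest, and the shared share of etoposide peaks was 78.6% within 10 kb. Genes with more etoposide peaks numbered 1 within 10 kb and 25 kb, 3 within 100 kb, 0 at a -log10 q of at least 5 and 2 among the 10000 strongest. Those 2 were DDB2, with 1 untreated and 5 etoposide peaks, and FAS, with 0 and 2. Both had more untreated peaks in the full lists. AEN had 1 peak in each list among the 10000 strongest. The shared shares, untreated first, fell to 26.3% and 41.7% with an overlap of at least 50% of both peaks and to 30.8% and 40% among the 10000 strongest. They rose to 50% and 70.8% with a counterpart within 200 bp, a setting chosen after seeing the data. Shared shares of the whole lists under these settings are not given here, nor the share of all genes with more etoposide peaks. Changes at the 10 genes therefore cannot be told apart from those of all peaks. The window and threshold settings hold fewer or more peaks by construction. No paired analysis was possible because each condition had 1 library and the values come from no test. With 1 library per condition, peaks of a single list cannot be set against variation between cultures.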
